A study of Gallus gallus with 6 samples.

Results

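Retinoic acid metabolism and receptor genes were described in chick lens fiber cells, the elongated cells that fill the lens. The starting list named 10 genes, and 7 of them had a row among the 9107 of the deposited RNA-seq table: the P450 genes CYP26A1 and CYP1B1 and the nuclear receptor genes RARA, RARB, RARG, RXRA and RXRG. ALDH1A1, ALDH1A2 and CRABP1 were not analysed here. The list was chosen by symbol, with the difference between hypoxia and untreated pools already known, and the large differences of CYP26A1 and CYP1B1 in that same contrast put them at its head. Their values are therefore given as a description, with no test.

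All lenses came from White Leghorn embryos at embryonic day 13. The hypoxia group held 3 pools of fiber cells from whole lenses kept in organ culture for 8 h in 1% O2, in Medium 199 with fetal bovine serum, and the untreated group held 3 pools taken at 0 h. Each pool combined the microdissected fiber cells of 10 to 15 lenses, and pools of a group are called biological triplicates in the labels. Time in culture and oxygen changed together between the groups and cannot be told apart, and no culture in normal oxygen was analysed here.

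Retinoic acid is made from vitamin A (retinol) in 2 oxidation steps, the second by the ALDH1A enzymes, and it acts by binding RAR receptors, which pair with RXR receptors on DNA. CYP26 enzymes hydroxylate retinoic acid and so mark it for removal, and CYP26A1 is itself a classic gene switched on by retinoic acid. CYP1B1 is a P450 enzyme of steroids, fatty acids and foreign compounds that can also oxidise retinol and retinal, and in chick embryos it has been described as an alternative source of retinoic acid. In the eye, retinoic acid is known for shaping the anterior segment, and inherited loss of CYP1B1 is a known cause of congenital glaucoma in humans.

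The libraries held 29.4 to 32.6 M reads in the hypoxia group and 23.5 to 29.1 M reads in the untreated group. Levels below are normalized counts, that is, reads after the authors' division by 1 factor for each library and rounding, and they are not corrected for transcript length, so levels of different genes are not compared. Delta-crystallin ASL1 alone took 48.2% to 53.1% of each library. Of 23 lens fiber markers 22 were measured, and they summed to 15.1 to 16.4 M normalized counts in the hypoxia pools and 18.3 to 20.4 M in the untreated pools, most of it ASL1. Of these markers 16 were lower, 3 did not pass and 3 were higher, namely MAF and PROX1, transcription factors of fiber differentiation, and TMOD1, a cytoskeletal cap protein. Among 9105 genes tested with limma, 55.1% were called at an adjusted p under 0.05, 29.4% higher and 25.7% lower in the hypoxia pools. In 62.7% of genes the 3 pools of one group all lay above those of the other, with the hypoxia pools above in 32.6% and below in 30.1%. Of the calls 53.4% were higher, a share that became 78.9% when each library was scaled by its total, which shifts the median log2 fold change of all genes by 0.216, and 64.1% when crystallins were left out of that total. In a bulk pool, fewer cells of a type and less RNA per cell cannot be told apart.

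CYP26A1, the enzyme that breaks down retinoic acid, was near the limit of counting in the hypoxia pools. It stood at 5, 2 and 1 normalized counts in hypoxia pools 1 to 3 and at 78, 77 and 66 in untreated pools 1 to 3. The untreated pools lay close together, and every hypoxia pool lay far below them. The means were 2.67 ± 2.08 in the hypoxia pools and 73.7 ± 6.66 in the untreated pools (SD, n = 3 each), a log2 fold change of -4.50 ± 0.49 (SE, 95% interval -5.57 to -3.42). Behind these values were 6, 3 and 1 reads in the hypoxia pools and 66, 72 and 49 reads in the untreated pools. From the summed reads, 10 in the hypoxia pools and 187 in the untreated pools, the level in the hypoxia pools was 0.0384 of that in the untreated pools, with an exact 95% interval of 0.0181 to 0.0722 that covers counting error only. Because the hypoxia values are so low, the log2 fold change depends on the added constant, and with 5 instead of 1 it was -3.39. A log2 fold change this low or lower occurred in 0.0549% of the genes tested. That rank follows from the choice of CYP26A1 for its large difference, and nothing is read from it. The authors' deposited table gives a shrunken log2 fold change of -3.84 for CYP26A1.

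CYP26C1, a second CYP26 enzyme, also fell. It stood at 7, 2 and 2 normalized counts in the hypoxia pools and at 49, 20 and 13 in the untreated pools, a log2 fold change of -2.56 ± 0.66 (limma, adjusted p = 0.00674, with 0.00233 to 0.0253 over its alternatives). The groups did not overlap, but the untreated pools were uneven, and without untreated pool 1 the log2 fold change was -2.04. The 13 reads in the hypoxia pools and 71 in the untreated pools limit the precision. In the RefSeq gene order of chicken assembly GRCg7b, CYP26A1 and CYP26C1 are next to each other among the protein-coding genes of chromosome 6. The gene on the far side of CYP26C1, EXOC6, which encodes a subunit of the exocyst, rose (log2 fold change 0.73 ± 0.12, adjusted p = 0.000388). MYOF, which is 2 genes from CYP26A1 on the other side and encodes the membrane protein myoferlin, had -0.41 ± 0.34 and did not pass (adjusted p = 0.322).

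**Figure D1:**
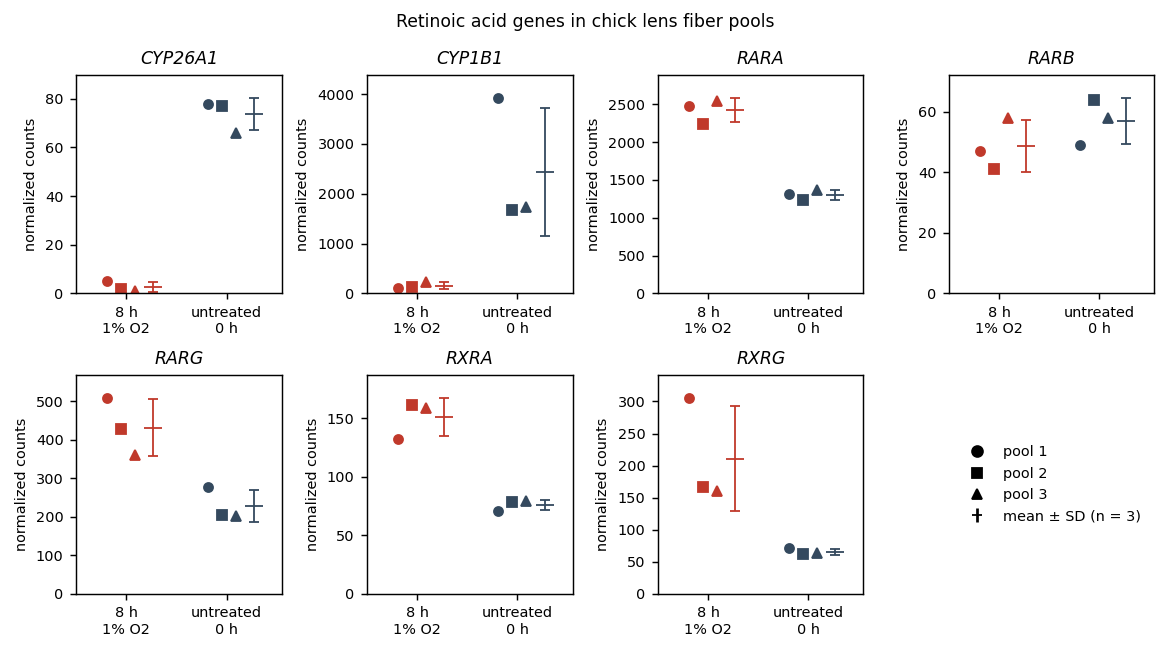
Normalized counts (vertical axes, each from 0) of the 7 genes in each pool, with the hypoxia pools on the left and the untreated pools on the right; marker shapes give the pool number and bars the mean ± SD (n = 3). CYP26A1 and CYP1B1 are low in every hypoxia pool, RARA, RARG, RXRA and RXRG are high in every hypoxia pool, and RARB overlaps.

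CYP1B1 was the other gene with a much lower level after 8 h in 1% O2. It stood at 101, 133 and 230 normalized counts in hypoxia pools 1 to 3 and at 3923, 1680 and 1725 in untreated pools 1 to 3. Untreated pool 1 was far above the other untreated pools, and all hypoxia pools lay far below all untreated ones. The means were 155 ± 67.2 in the hypoxia pools and 2443 ± 1282 in the untreated pools (SD, n = 3 each), and the log2 fold change was -3.94 ± 0.45 (95% interval -5.04 to -2.83). Without untreated pool 1 it was -3.54 ± 0.32. The pools held 538 reads of CYP1B1 in the hypoxia group and 6187 in the untreated group, so counting error is small beside the spread between pools. In 0.143% of the genes tested the log2 fold change was this low or lower. As for CYP26A1, nothing is read from this rank, since the gene was chosen for its large difference. For CYP1B1 the authors' deposited table gives a shrunken value of -3.17.

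The excess of CYP1B1 in untreated pool 1 was shared by several retinoid genes and not by others. The genes of this comparison other than the 7 above were picked after their values were seen. CYP1B1 in untreated pool 1 was 2.30 times the mean of untreated pools 2 and 3, a ratio reached by 0.768% of genes. RDH10, the main retinol dehydrogenase of embryos, stood at 3.49 times that mean, CYP26C1 at 2.97 times, and STRA6, the membrane receptor that takes up retinol, at 1.83 times. CYP26A1 had a ratio of 1.09, RARA 1.01, RXRA 0.905 and CYP1A1 1.04. Of 8986 genes with an untreated mean of at least 20, 129 were at least 2-fold higher and 17 at least 2-fold lower in untreated pool 1 than the mean of pools 2 and 3.

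**Figure D2:**
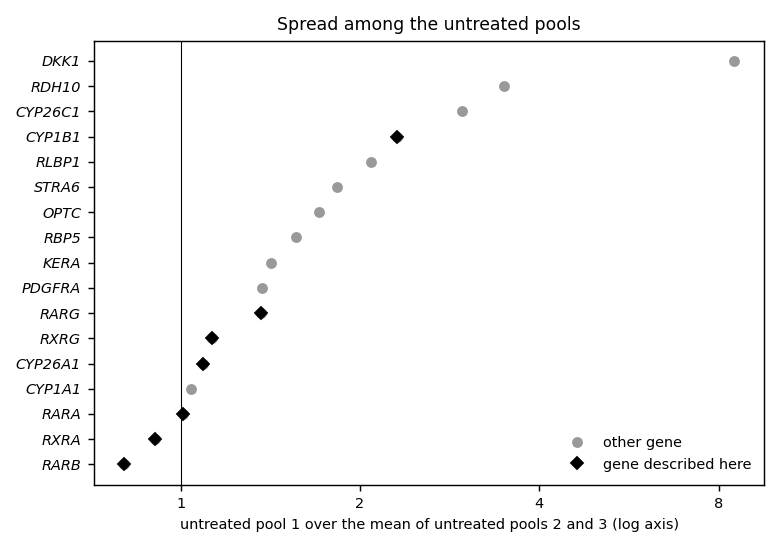
Level in untreated pool 1 divided by the mean of untreated pools 2 and 3 (horizontal axis, log scale) for the 7 genes described here (diamonds) and for 10 others (circles). CYP1B1 lies at 2.30 and RDH10 at 3.49, whereas CYP26A1 lies at 1.09.

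Some markers of tissues around the lens also differed between the groups, in both directions. Of all genes 29.4% were called higher and 25.7% lower, and nothing is read from counts in lists this short. Of 13 periocular mesenchyme and fibroblast markers 5 were measured, with 3 lower and 1 higher after 8 h. Their summed level was 583 to 723 normalized counts in the hypoxia pools and 1029 to 1351 in the untreated pools. Most of each untreated sum was PDGFRA, at 254, 268 and 210 in the hypoxia pools and 887, 622 and 677 in the untreated pools. The difference of the sums therefore describes PDGFRA more than the other members. PDGFRA, a growth factor receptor of mesenchyme, fell (log2 fold change -1.57 ± 0.15, adjusted p = 8.13e-06), as did KERA, the corneal stroma proteoglycan keratocan (-1.80 ± 0.27, adjusted p = 0.000228). COL3A1, a fibroblast collagen, rose (1.13 ± 0.19, adjusted p = 0.000544), with all hypoxia pools above the untreated ones, and DCN, the proteoglycan decorin, did not pass (-0.27 ± 0.32, adjusted p = 0.498). Of 16 retina and ciliary epithelium markers only OPTC and GNAT1 were measured. They summed to 146 to 203 in the hypoxia pools and 372 to 633 in the untreated pools, most of it OPTC in every pool. OPTC, which encodes opticin, a vitreous protein made by the ciliary epithelium, fell (-1.77 ± 0.21, adjusted p = 0.000101) and stood in untreated pool 1 at 1.70 times the mean of the other untreated pools. GNAT1 overlapped between the groups and did not pass (-0.39 ± 0.24, limma adjusted p = 0.194). Of 15 endothelium and blood markers 3 were measured, with sums of 263 to 333 in the hypoxia pools and 391 to 538 in the untreated pools. PECAM1 of endothelium fell, from 172, 156 and 179 in the untreated pools to 22, 65 and 40 in the hypoxia pools. CD74 and HBA1 overlapped between the groups and did not pass, so the difference of the sums rests mainly on PECAM1. The 2 measured of 8 pigment epithelium markers, MITF and PMEL, rose, with sums of 327 to 585 in the hypoxia pools and 124 to 181 in the untreated pools. PMEL overlapped between the groups, and its call was lost without hypoxia pool 1 or 3 or untreated pool 2 or 3 (adjusted p 0.00195 to 0.121 over its alternatives). The 5 measured of 7 lens epithelium markers summed to 6088 to 7145 in the hypoxia pools and 4793 to 5028 in the untreated pools. PAX6 made up most of each sum and was higher, at 4734, 4038 and 4035 in the hypoxia pools and 2838, 2517 and 2524 in the untreated pools. SLC7A11 was also higher, at 77, 88 and 67 in the hypoxia pools and 0 in every untreated pool. NPNT was lower, and CDH1 and ADAMTS18 did not pass. The part of these cell types in the CYP1B1 and CYP26A1 differences was not tested.

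Receptor genes took the opposite direction from the P450 pair, except RARB. Among the 7 genes, 6 had no overlap between the groups, 4 with the hypoxia pools above and 2 below, where 62.7% of all genes had none. Nothing is read from that count, because the genes were chosen with this contrast known.

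RARA encodes the retinoic acid receptor alpha, which is found in most tissues. It stood at 2479, 2244 and 2548 normalized counts in hypoxia pools 1 to 3 and at 1309, 1233 and 1365 in untreated pools 1 to 3. Both groups were tight and lay well apart, with means of 2424 ± 159 in the hypoxia pools and 1302 ± 66.2 in the untreated pools (SD, n = 3 each) and a log2 fold change of 0.89 ± 0.09 (95% interval 0.70 to 1.09). RARG, the gamma receptor, stood at 508, 428 and 360 in the hypoxia pools and at 277, 204 and 203 in the untreated pools. Pool 1 was the highest of each group for RARG, and the lowest hypoxia pool still lay above the highest untreated pool. Its log2 fold change was 0.92 ± 0.16 (0.57 to 1.27).

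RARB encodes the beta receptor, whose gene carries a well known retinoic acid response element and is a standard readout of retinoic acid. It stood at 47, 41 and 58 normalized counts in the hypoxia pools and at 49, 64 and 58 in the untreated pools. The groups overlapped, with means of 48.7 ± 8.62 in the hypoxia pools and 57.0 ± 7.55 in the untreated pools (SD, n = 3 each) and a log2 fold change of -0.23 ± 0.24. The 95% interval was -0.76 to 0.30, with 170 reads in the hypoxia pools and 145 in the untreated pools. With library totals the log2 fold change of RARB was -0.02.

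RXRA and RXRG encode retinoid X receptors, the partners that RARs need to bind DNA. RXRA stood at 132, 161 and 159 normalized counts in the hypoxia pools and at 71, 78 and 79 in the untreated pools. The groups lay apart with little spread in either, and the log2 fold change was 0.97 ± 0.17 (95% interval 0.61 to 1.34). RXRG stood at 305, 167 and 161 in the hypoxia pools and at 71, 62 and 64 in the untreated pools. Hypoxia pool 1 was far above the other hypoxia pools, and all of them lay above the untreated ones. The log2 fold change of RXRG was 1.61 ± 0.24 (1.09 to 2.12), and without hypoxia pool 1 it was 1.31 ± 0.19.

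Ratios between receptor genes within a pool do not depend on how libraries are scaled. RARG over RARA was 0.205, 0.191 and 0.141 in the hypoxia pools and 0.212, 0.165 and 0.149 in the untreated pools, so the groups overlapped. RARB over RARA was 0.0190, 0.0183 and 0.0228 in the hypoxia pools and 0.0374, 0.0519 and 0.0425 in the untreated pools. RARB was thus lower relative to RARA in every hypoxia pool. RXRG over RXRA was 2.31, 1.04 and 1.01 in the hypoxia pools and 1.0, 0.795 and 0.810 in the untreated pools, where the lowest hypoxia value lay just above the highest untreated one. RXRA over RARA was 0.0532, 0.0718 and 0.0624 in the hypoxia pools and 0.0542, 0.0633 and 0.0579 in the untreated pools, which overlapped.

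Genes for the uptake and storage of retinol were divided. The 7 that were measured split into 2 higher, 2 lower and 3 that did not pass. Both shares were 28.6%, near the 29.4% higher and 25.7% lower of all genes. The median log2 fold change was -0.45, against -0.01 for all genes tested. Without hypoxia pool 3, 1 gene of the list was lower, as with library totals. SCARB1, a lipoprotein receptor that also takes up carotenoids, the provitamins A, stood at 1393, 1059 and 1016 normalized counts in the hypoxia pools and at 424, 380 and 458 in the untreated pools (log2 fold change 1.45 ± 0.13, adjusted p = 5.03e-06). Every hypoxia pool lay far above every untreated pool. RBP5, a cellular retinol-binding protein, stood at 88, 82 and 84 in the hypoxia pools and at 277, 170 and 185 in the untreated pools (-1.27 ± 0.19, adjusted p = 0.000213). The hypoxia pools of RBP5 were nearly equal, and untreated pool 1 was the highest. The other called members, picked for the text by their calls, were LRP1, a receptor of lipoprotein remnants, which rose by 0.54 ± 0.11 on the log2 scale, and BCO2, which cleaves carotenoids (-0.45 ± 0.14). The BCO2 call was lost with library totals and without hypoxia pool 3 or untreated pool 1 or 2 (adjusted p 0.00572 to 0.247 over its alternatives). STRA6 stood at 1136, 1122 and 1018 in the hypoxia pools and at 2444, 1321 and 1349 in the untreated pools. Its groups did not overlap, untreated pool 1 stood apart, and the limma test was not passed (-0.58 ± 0.23, adjusted p = 0.0665). The authors' deposited table gives STRA6 a shrunken log2 fold change of -0.62, with an adjusted p under 0.05. Without untreated pool 1, 2 or 3, STRA6 passed at adjusted p = 0.0375, 0.0362 and 0.0489 (0.0214 to 0.251 over its alternatives), and without pool 1 the log2 fold change was -0.29. LRP2, the endocytic receptor megalin, had 0.43 ± 0.21 and did not pass (adjusted p = 0.0939), but did without hypoxia pool 1 (adjusted p = 0.029, 0.0279 to 0.358 over its alternatives).

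Enzymes that turn retinol into retinal and back mostly did not pass. The 9 oxidoreductases measured split into 2 lower, 0 higher and 7 that did not pass, at a median log2 fold change of -0.29. The share that was lower, 22.2%, was near the 25.7% of all genes, and 4 were lower without untreated pool 2. With library totals 1 was higher and 1 lower, and 1 was higher without untreated pool 3. At an unadjusted p under 0.05, limma put 1 higher and 3 lower. Both lower members, which were picked for the text by their calls, were reductases: DHRS3 (-0.58 ± 0.13, adjusted p = 0.00321), which reduces retinal back to retinol and is a known retinoic acid target, and DHRS4 (-0.41 ± 0.09, adjusted p = 0.0028), a related enzyme whose call was lost with library totals (adjusted p = 0.0998, 0.00218 to 0.0998 over its alternatives). RDH10 stood at 94, 77 and 92 normalized counts in the hypoxia pools and at 450, 113 and 145 in the untreated pools. All hypoxia pools lay below all untreated ones, untreated pool 1 stood far above the others, and the test was not passed (-1.15 ± 0.50, adjusted p = 0.0955). Without untreated pool 1 RDH10 passed with a smaller log2 fold change of -0.55 (adjusted p = 0.0473), and without untreated pool 2 with -1.54 (adjusted p = 0.0295, 0.0295 to 0.254 over its alternatives). AKR1B1, an aldo-keto reductase of retinal and glucose, had a log2 fold change of -0.05 ± 0.09, and DHRS11 of 0.27 ± 0.11 (adjusted p = 0.0581). DHRS11 passed without untreated pool 3 (adjusted p = 0.0328, 0.00226 to 0.22 over its alternatives).

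Of 4 genes measured for retinoic acid binding and breakdown, CYP26C1 was lower and 3 did not pass, with a median log2 fold change of -0.05. The lower share, 25%, was near the 25.7% of all genes. With library totals the median of the list was 0.17, and that of all genes 0.20. FABP5, a fatty acid-binding protein that can carry retinoic acid to PPARD, stood at 34223, 29827 and 36724 normalized counts in the hypoxia pools and at 35777, 40715 and 39050 in the untreated pools. The groups overlapped (-0.20 ± 0.11, 95% interval -0.44 to 0.04, adjusted p = 0.135). POR, the reductase that supplies electrons to microsomal P450 enzymes, had 0.22 ± 0.10 (adjusted p = 0.0771). POR passed without hypoxia pool 2 (adjusted p = 0.0352) and with library totals (adjusted p = 0.00469, 0.00469 to 0.256 over its alternatives).

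**Figure D3:**
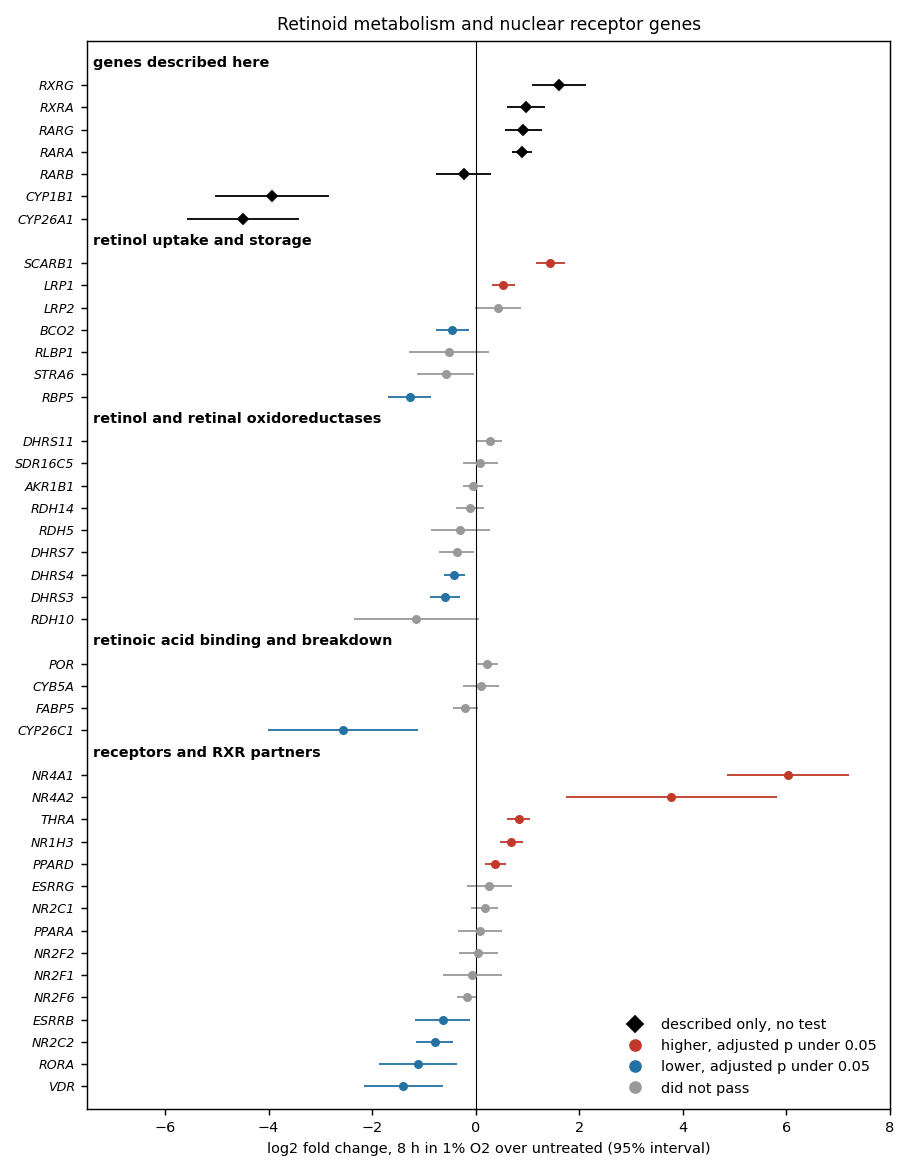
Log2 fold change of 8 h in 1% O2 over untreated with its 95% interval (horizontal axis) for the 7 genes described without a test (diamonds) and for the measured members of 4 lists (circles, coloured by call at an adjusted p under 0.05). CYP26A1 and CYP1B1 lie at -4.50 and -3.94, and the 4 higher receptor genes at 0.89 to 1.61.

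Nuclear receptors that pair with RXR, or that bind related DNA sites, were divided. The 15 measured split into 5 higher, 4 lower and 6 that did not pass, at a median log2 fold change of 0.09. The shares, 33.3% higher and 26.7% lower, were near those of all genes, and 2 were lower without untreated pool 2 or with library totals. NR4A1, an orphan receptor induced within minutes by many stimuli, stood at 109, 63 and 159 normalized counts in the hypoxia pools and at 0, 1 and 1 in the untreated pools (adjusted p = 4.22e-06). With 2 reads in all untreated pools and 380 in the hypoxia pools, its ratio was 136, with an exact 95% counting interval of 37.5 to 1131. NR4A2, its relative, stood at 10, 9 and 70 in the hypoxia pools and at 0, 2 and 0 in the untreated pools, a ratio of 35.9 (9.69 to 301). Hypoxia pool 3 held most of its reads, and the call of NR4A2 (adjusted p = 0.0053) was lost without that pool (adjusted p = 0.0565, 0.00483 to 0.0565 over its alternatives). VDR, the vitamin D receptor, stood at 18, 26 and 12 in the hypoxia pools and at 52, 51 and 43 in the untreated pools (-1.39 ± 0.35, adjusted p = 0.00543). RORA, a receptor of the circadian clock, stood at 18, 47 and 40 in the hypoxia pools and at 65, 83 and 67 in the untreated pools (-1.11 ± 0.34, adjusted p = 0.0168). Neither overlapped between groups, but the RORA call was lost without untreated pool 2 (adjusted p = 0.0623) and with library totals (adjusted p = 0.0525, 0.00637 to 0.0623 over its alternatives). The other called members, also picked by their calls, were higher for the thyroid hormone receptor gene THRA (0.83 ± 0.10), the oxysterol receptor gene NR1H3 (0.69 ± 0.10) and PPARD (0.38 ± 0.09), and lower for NR2C2 (-0.79 ± 0.16) and ESRRB (-0.64 ± 0.24). The ESRRB call was lost with library totals and without hypoxia pool 1 or 3 or untreated pool 2 or 3 (adjusted p 0.00539 to 0.194 over its alternatives). NR2F6 and NR2C1, which had the highest mean normalized counts of those that did not pass, had log2 fold changes of -0.17 ± 0.09 and 0.18 ± 0.12. NR2C1 passed with library totals (adjusted p = 0.0239, 0.0239 to 0.53 over its alternatives).

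Cofactors of the retinoid receptors were more often higher than lower. The 28 measured split into 14 higher, 2 lower and 12 that did not pass, at a median log2 fold change of 0.30. That made 50.0% higher and 7.14% lower, where 29.4% and 25.7% of all genes were. The list was chosen with earlier results of these data known. Scaled by library totals, 21 rose and 0 fell, with a median of 0.51. That scaling raises genes in general, with 3647 of all genes higher, 976 lower and a median of 0.20. The count of lower members was 1 without hypoxia pool 3, untreated pool 1 or untreated pool 3, and 0 without untreated pool 2. Of the 28 members, 5 rose at least 2-fold, where 10.2% of all genes did, and nothing is read from so small a count. NCOR1, a corepressor of unliganded RAR, rose and stood at 663, 611 and 632 normalized counts in the hypoxia pools and at 280, 313 and 341 in the untreated pools (1.03 ± 0.11, adjusted p = 1.4e-05). Every hypoxia pool lay far above every untreated pool. SIN3A, a scaffold of histone deacetylase complexes, rose by 1.27 ± 0.13 on the log2 scale. TRIM24, a ligand-dependent RAR cofactor that limits retinoic acid signalling in mouse liver, stood at 190, 232 and 219 in the hypoxia pools and at 77, 67 and 59 in the untreated pools (1.65 ± 0.17, adjusted p = 1.16e-05). ZNF423, a zinc finger protein needed for RAR activity in cultured cells, rose by 1.19 ± 0.10. HACD1, a fatty acid elongation enzyme, rose by 1.07 ± 0.23, but it stood in the list by error. It is included in the counts, shares and medians above, also among the 5 that rose at least 2-fold. Without it 13 of 27 cofactors were higher, with a median log2 fold change of 0.29. CNOT1 and MED1, the members with the highest mean normalized counts that did not pass, had log2 fold changes of 0.01 ± 0.09 and -0.07 ± 0.21. With library totals CNOT1 had 0.23 and passed (adjusted p = 0.045).

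The coactivators among these were named after their values were seen. NCOA1, NCOA3 and NCOA6 rose by 0.64 ± 0.12, 0.57 ± 0.13 and 0.90 ± 0.14 on the log2 scale, and the histone acetyltransferase genes EP300 and CREBBP by 0.56 ± 0.12 and 0.35 ± 0.11. The CREBBP call was lost without hypoxia pool 2 or untreated pool 3 (adjusted p 0.00299 to 0.0803 over its alternatives). SNW1, a coactivator and splicing factor, had 992, 944 and 968 normalized counts in the hypoxia pools and 537, 539 and 536 in the untreated pools (0.85 ± 0.09). Both groups of SNW1 were even and lay far apart. NCOA2 had a log2 fold change of -0.30 ± 0.14 and did not pass (adjusted p = 0.0927). Neither did NCOA4 (0.19 ± 0.09), NCOA7 (0.16 ± 0.13) and the acetyltransferase genes KAT2A (0.21 ± 0.12) and KAT2B (-0.06 ± 0.09). The lower members were PNRC1 (-0.34 ± 0.09) and TBL1X (-0.31 ± 0.10). Both calls were lost with library totals and without untreated pool 2, that of PNRC1 also without untreated pool 3, and that of TBL1X also without hypoxia pool 3 or untreated pool 1. Over the alternatives the adjusted p was 0.00468 to 0.245 for PNRC1 and 0.00632 to 0.527 for TBL1X.

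Genes known from other tissues as targets of retinoic acid did not share a direction. The list had 28 rows for 27 symbols, since TGM2 was on 2 rows, and 6 of its genes are also in the lists above. The second TGM2 row has EIF3K as its other name in the deposited table, so it may not be TGM2. It is counted among the lower rows. The 28 rows split into 9 higher, 9 lower and 10 that did not pass, at a median log2 fold change of -0.13. Scaling by library totals gave 11 higher and 4 lower rows, with a median of 0.09, where 3647 of all genes were higher and 976 lower. At the deposited scaling the higher and the lower share were both 32.1%, where 29.4% of all genes were higher and 25.7% lower. Of the rises 6 were of at least 2-fold, where 10.2% of all genes rose so far, and of the falls 2 were of at least 2-fold, where 3.96% of all genes fell so far. BHLHE40, a circadian repressor first described as induced by retinoic acid, stood at 1705, 1485 and 2252 normalized counts in the hypoxia pools and at 368, 375 and 305 in the untreated pools (2.36 ± 0.15, adjusted p = 8.05e-07). SOX9, a transcription factor gene of cartilage and neural crest, stood at 162, 125 and 115 in the hypoxia pools and at 6, 4 and 1 in the untreated pools (5.02 ± 0.47, adjusted p = 5.98e-06). Both were far apart between groups. PDK4, a kinase that shuts off pyruvate oxidation, rose by 2.60 ± 0.29, and RAI14, a retinoic acid-induced actin-binding protein, by 2.01 ± 0.29. RARRES1 stood at 60, 63 and 63 in the hypoxia pools and at 5, 11 and 0 in the untreated pools (3.92 ± 0.79, adjusted p = 0.0025), and its log2 fold change was 2.89 without untreated pool 3 and 4.68 without untreated pool 2. The remaining higher rows were the homeobox genes MEIS1 (0.88 ± 0.12) and PBX3 (0.58 ± 0.10) and GPRC5C (0.58 ± 0.21), whose call was lost without hypoxia pool 1 or untreated pool 2 (adjusted p 0.0119 to 0.138 over its alternatives). CEBPB had 174 reads in the hypoxia pools and 1 in the untreated pools, a ratio of 125 (22.1 to 4964). Among the lower rows, DKK1, a Wnt inhibitor, was listed at 0 in all hypoxia pools and at 191, 15 and 30 in the untreated pools, and CYP26C1 and DHRS3 are given above. EYA2, RARRES2, GPRC5B, LAMB1 and both rows of TGM2 had log2 fold changes of -0.51 to -0.31, and they, like the remaining higher rows, were named after their values were seen. With library totals all of these lower calls were lost but that of RARRES2. The LAMB1 call was also lost without hypoxia pool 3 or untreated pool 1 or 2, and the calls of both TGM2 rows without untreated pool 1 or 3, that of 1 of them without hypoxia pool 2 as well. PITX3, a lens transcription factor, and RAI2 had the highest mean normalized counts of those that did not pass, at 0.08 ± 0.09 and 0.16 ± 0.09. With library totals both passed as higher (adjusted p = 0.0173 for PITX3 and 0.00461 for RAI2). Over the alternatives the adjusted p was 0.0173 to 0.692 for PITX3 and 0.00461 to 0.389 for RAI2.

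**Figure D4:**
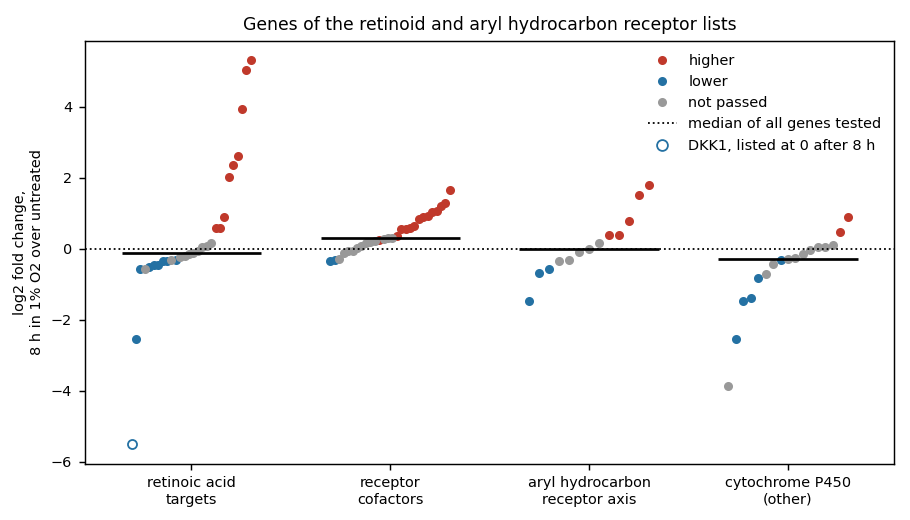
Log2 fold change of 8 h in 1% O2 over untreated (vertical axis) for each measured member of 4 lists, ordered by value within a list and coloured by call at an adjusted p under 0.05; bars are list medians and the dotted line the median of all genes tested. The cofactor list, with HACD1 included, has its median at 0.30. The open circle is DKK1, listed at 0 after 8 h, so its log2 fold change of -5.51 depends on the added constant.

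CYP1B1 is also a standard target of the aryl hydrocarbon receptor (AHR), a ligand-activated factor that pairs with ARNT, the same partner that the hypoxia-inducible factors use. The 13 genes measured on this axis split into 5 higher, 3 lower and 5 that did not pass, with a median log2 fold change of -0.02. With library totals the median of the list was 0.20, as was that of all genes. The shares were 38.5% higher and 23.1% lower, where 29.4% and 25.7% of all genes were. The called targets CYP1A1 and TIPARP went in opposite directions. NQO1 of the same list, named after its values were seen, overlapped between groups and did not pass (-0.35 ± 0.27, adjusted p = 0.291). CYP1A1, the most widely used readout of AHR, stood at 283, 501 and 271 normalized counts in the hypoxia pools and at 972, 974 and 896 in the untreated pools (-1.49 ± 0.22, adjusted p = 0.00072). The untreated pools of CYP1A1 were even, unlike those of CYP1B1. TIPARP, an AHR target that in turn restrains AHR, stood at 1173, 993 and 1184 in the hypoxia pools and at 292, 318 and 353 in the untreated pools (1.80 ± 0.11, adjusted p = 2.59e-07). AHR itself stood at 54, 62 and 63 in the hypoxia pools and at 21, 20 and 20 in the untreated pools (2.84-fold higher, adjusted p = 0.000767). ARNT, named after its values were seen, stood at 1298, 1231 and 1202 in the hypoxia pools and at 1391, 1304 and 1319 in the untreated pools, and did not pass (-0.11 ± 0.08, 95% interval -0.29 to 0.08, adjusted p = 0.303). HSP90AB1, the chaperone that holds AHR in the cytosol, had -0.32 ± 0.13 (adjusted p = 0.0572) and passed without untreated pool 2 (adjusted p = 0.039, 0.0184 to 0.608 over its alternatives). SCIN had 0.15 ± 0.12 and did not pass (adjusted p = 0.323), but did with library totals (adjusted p = 0.0456, 0.0456 to 0.981 over its alternatives).

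Genes with profiles most like those of CYP26A1 and CYP1B1 were ranked by the distance between log2 profiles over the 6 libraries, each centred on its own mean. Such a distance counts the group difference together with the spread within groups, and for rows of few reads it depends on the added constant. Only rows with a mean of at least 20 in either group were compared, and rows named by a number or a LOC symbol were passed over. Of 9084 rows compared, the nearest to CYP26A1 were NRIP3 (distance 0.872), FSHB, the follicle-stimulating hormone beta subunit (1.08), C1QTNF7 (1.13), FABP7, the brain fatty acid-binding protein (1.29), and MAOA, a monoamine oxidase (1.42). NRIP3 stood at 17, 9 and 12 normalized counts in the hypoxia pools and at 350, 311 and 297 in the untreated pools. Like CYP26A1, it had even untreated pools. The nearest to CYP1B1 were RRM2, a ribonucleotide reductase subunit (0.640), SMC2, a condensin subunit of mitotic chromosomes (0.669), the somatostatin receptor gene SSTR3 (0.696), TSKU, a secreted leucine-rich proteoglycan (1.21), and ABCC9, a potassium channel regulator (1.27). RRM2 stood at 1, 1 and 2 in the hypoxia pools and at 77, 25 and 36 in the untreated pools, and SMC2 at 1, 3 and 4 in the hypoxia pools and at 101, 27 and 35 in the untreated pools. Each of these 5 genes was highest in untreated pool 1, as CYP1B1 was. The distance uses the untreated values, so this likeness, and that of NRIP3 to CYP26A1, follows largely from how the rows were picked. All of the named rows but FSHB and TSKU also passed the limit of 20 only through their untreated pools.

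**Figure D5:**
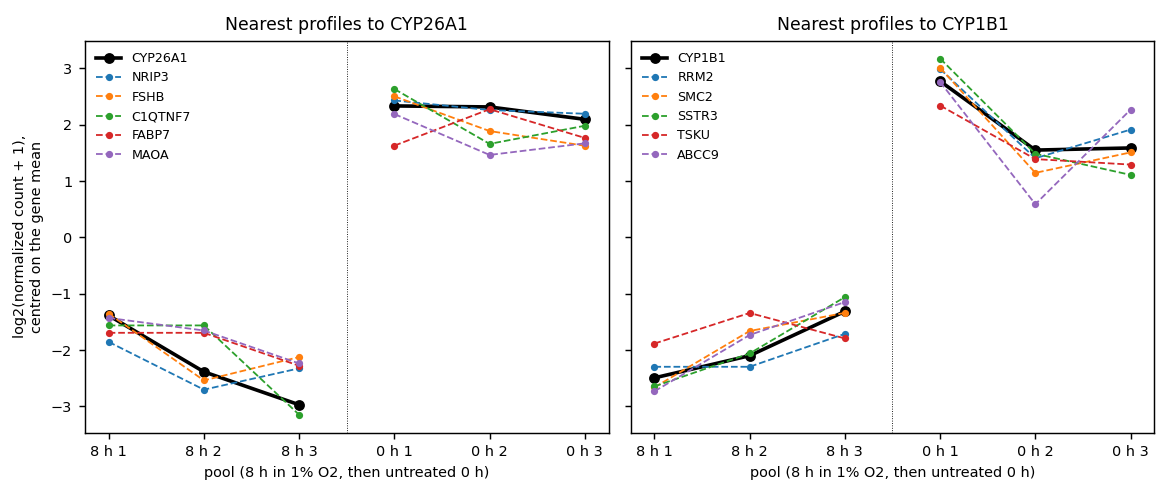
Log2(normalized count + 1) in each pool, centred on each gene's mean (vertical axis), for CYP26A1 and CYP1B1 (black) and the 5 rows nearest to each (colours), with hypoxia pools left of the dotted line and untreated pools right of it. CYP1B1 and its 5 nearest rows are highest in untreated pool 1, whereas CYP26A1 is even over the untreated pools. The rows were picked by these same values, and lines only join the pools of a group.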

How the data were processed

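RNA from 3 hypoxia and 3 untreated pools was made into libraries with a TruSeq stranded mRNA kit, per the labels' protocols. The submitters' processing notes name STAR, DESeq2, cutadapt, Bowtie2, HISAT2, StringTie, edgeR and the build galGal6, without roles. The authors deposited one table of 9107 genes with whole numbers per library, and these deposited values are scores, reads over a size factor for each library, rounded, called normalized counts here. The deposited table also gives the authors' shrunken log2 fold changes and their adjusted p-values. Of these only log2 fold changes are quoted, and for STRA6 also that its adjusted p was under 0.05. Low values recovered the size factors and with them reads per library. Row choice by the authors is not given in the sources used here, and 48 genes had a mean under 20. One row with a value that was not whole was left out.

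Values were tested as log2(normalized count + 1) with limma 3.58.1 in R 4.3.3, with a mean-variance trend and robust estimation, on 9105 genes with a mean of at least 1, with Benjamini-Hochberg adjustment over all of them and 0.05 as the threshold. Fold changes are on this log2(value + 1) scale, which understates changes of low genes, and are hypoxia over untreated. The same code was tested on simulated data. Members and lists were chosen with earlier results of these data known. Named were every gene of the starting list with a row, the members of each list past the threshold with at least a 2-fold change (up to 8 by p), and the 2 with the highest means that did not pass. Other genes, said to be picked by their calls or named after their values were seen, fall outside this rule. Symbols on 2 rows (12) were kept as deposited. Neighbours come from RefSeq GRCg7b by name alone, where 8667 rows matched, and promoter sequence was not used here. Intervals on reads cover counting error only, since the reads carry no molecular identifiers. One gene is not reported here.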

Additional observations from a re-analysis of the deposited data

How the results depend on the processing

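No called gene checked changed direction under the alternatives run: constants of 0.5 and 5, no filter or a mean of at least 20, other scalings, limma without trend or robust estimation, the replicate number as a block, and each library left out. Of the summary values, 374 stayed close and 31 moved. The limit for counts was loose. With library totals 21 cofactors were higher instead of 14, and 3647 of all genes instead of 2681, and both counted as close. AKR1B1, CNOT1, CYP51A1, FABP5, MED1 and NR2F6, which did not pass, changed sign in some, and list medians near 0 changed sign with library totals, as given above. Library totals gave 976 lower genes in all, 9 lower in the retinoid and AHR lists together, 1 lower for uptake, 1 higher and 1 lower for oxidoreductases, 1 higher for binding and breakdown, 2 lower for RXR partners, 0 lower for cofactors and 4 lower for targets, and log2 fold changes of 1.11 for RARA and 1.19 for RXRA. Library totals without crystallins gave 1 lower for uptake, 1 higher for oxidoreductases, 1 higher for binding, 1 lower for cofactors and 0.98 for RARA. Limma without trend or robust estimation gave 1 lower cofactor, a mean of at least 20 gave 0 lower for binding, since CYP26C1 was then not tested, and the constant 5 gave -3.39 for CYP26A1. Beyond the change each scaling makes by construction, the cause was not tested.

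With each library left out in turn, lower calls ranged over 1 to 3 for uptake, 2 to 4 for oxidoreductases, 2 to 4 for RXR partners, 0 to 3 for cofactors and 3 to 6 for other P450 genes, and higher calls over 0 to 1 for oxidoreductases and 0 to 1 for binding. Whether the replicate numbers pair the pools is not settled by these values. Same-numbered pools correlated at 0.123, 0.110 and 0.0191, and those of numbers 1 and 2 were the highest of any pair. Untreated pool 3 correlated best with hypoxia pool 1 (0.0275), and hypoxia pool 3 best with untreated pool 2 (0.0653). A fit with the replicate block called 2786 genes higher and 2527 lower, with 1 oxidoreductase higher, and under it STRA6 (adjusted p = 0.0214), RDH10 (0.042), DHRS11 (0.0327), HSP90AB1 (0.0184) and CYP2C23a (0.00399) passed. Among genes named by the stated rule and RDH10, which was added to them, 25 gene-by-setting values became calls and 8 lost them. Among the other called genes named in the text 62 lost them, over 14 genes. CYP26A1 and CYP26C1 rest on few reads in the hypoxia pools, and 3 pools a group limit every interval.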

Other observations

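Other cytochrome P450 genes were called in both directions. The 17 measured besides CYP26A1 and CYP1B1 split into 2 higher, 5 lower and 10 that did not pass, with a median log2 fold change of -0.28. The lower share, 29.4%, was near the 25.7% of all genes, and the higher share was 11.8%, where 29.4% of all genes were higher. CYP1A1 and CYP26C1 are among the lower ones and are given above. CYP2D6, a drug-metabolising enzyme in humans, stood at 857, 1644 and 581 normalized counts in the hypoxia pools and at 1896, 3511 and 2201 in the untreated pools (-1.39 ± 0.43, limma adjusted p = 0.039). Pool 2 was the highest of both groups for CYP2D6, and its call was lost without hypoxia pool 1 or 3 or any one untreated pool (0.000552 to 0.123 over its alternatives). The remaining called genes, CYP2R1, CYP4A22, CYP2J22 (0.46 ± 0.12, adjusted p = 0.00875) and CYP20A1 (-0.31 ± 0.11, adjusted p = 0.0291), were chosen after their values were seen. The CYP20A1 call was lost with library totals and without hypoxia pool 1 or 3 or untreated pool 1 or 2 (adjusted p 0.0216 to 0.532 over its alternatives). CYP2R1, the vitamin D 25-hydroxylase, rose (0.89 ± 0.18, adjusted p = 0.00145), with 143, 172 and 152 in the hypoxia pools and 84, 70 and 98 in the untreated pools. VDR, the receptor downstream of that step, was lower. CYP4A22 fell (-0.83 ± 0.11, adjusted p = 6.7e-05), with 380, 342 and 400 in the hypoxia pools and 635, 638 and 725 in the untreated pools.

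CYP2C23b stood at 7, 615 and 5 normalized counts in the hypoxia pools and at 344, 533 and 496 in the untreated pools. Hypoxia pool 2 lay with the untreated pools and far from hypoxia pools 1 and 3, and the gene did not pass (-3.87 ± 2.10, adjusted p = 0.191). CYP2C23a, its relative by symbol, stood at 594, 754 and 387 in the hypoxia pools and at 700, 1362 and 798 in the untreated pools. Whether the counting shared reads between CYP2C23a and CYP2C23b was not tested. CYP51A1 of cholesterol synthesis, which had the highest mean normalized count of those that did not pass, had 0.04 ± 0.11 (adjusted p = 0.805).

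Protein-coding neighbours of CYP1B1 on chromosome 3 of GRCg7b did not share its direction throughout. RMDN2, next to it, stood at 39, 80 and 60 normalized counts in the hypoxia pools and at 101, 89 and 90 in the untreated pools (-0.69 ± 0.26, adjusted p = 0.0377). Its call was lost with library totals and without any one pool except hypoxia pool 2 (0.00976 to 0.162 over its alternatives). CDC42EP3, beyond RMDN2, an effector of the cytoskeletal GTPase CDC42, stood at 1453, 1567 and 1543 in the hypoxia pools and at 265, 290 and 195 in the untreated pools (2.62 ± 0.14, adjusted p = 1.21e-07). On the other side, NANP and EIF2AK2 had -0.24 ± 0.13 and -0.27 ± 0.27 and did not pass.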
